A study of Mus musculus with 2 samples.

Results

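Dermal papilla cells are the cells of this account: the specialised fibroblasts that sit at the base of each hair follicle. They were picked out of single-cell RNA measurements of mouse dorsal skin by a rule on their transcripts. A kept barcode had at least 500 UMIs (unique molecular identifiers, each standing for 1 counted RNA molecule), no fewer than 300 genes and no more than 20% of UMIs from mitochondrial genes. Cells were chosen by UMI counts: a barcode was a dermal papilla cell when Krt5 and Krt14 together held under 1% of its UMIs and at least 4 of 8 marker genes (Corin, Crabp1, Rspo3, Wif1, Hhip, Vcan, Fgf7 and Enpp2) had a UMI. The rule found 1095 cells among 19468 kept cells, 499 in the Chrna5-/- library and 596 in the WT library. Chrna5-/- mice lack the alpha 5 subunit of the nicotinic acetylcholine receptor, and both libraries came from vaseline-treated back skin of female C57BL/6 mice aged 6 to 8 weeks, taken on day 7 after 6 days of cream. Cells were freed with collagenase and live cells were sorted by exclusion of a dye. The labels give neither the number of mice behind each library nor the deleted stretch of Chrna5, and the extraction protocol speaks of imiquimod although every sample label names vaseline. They also conflict on substrain: the strain label is C57BL/6, the breeding text has C57BL/6N, to which the Chrna5-/- line was backcrossed, and the extraction text has C57BL/6J.

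The papilla is the signalling centre of the hair follicle. It sends R-spondins, fibroblast growth factors and bone morphogenetic protein (BMP) antagonists to the overlying epithelium, receives Wnt and sonic hedgehog signals from it, and instructs follicular melanocytes. Its cells are known for alkaline phosphatase, versican, corin and the transcription factors Sox2, Sox18 and Lef1, and they make little of the fibrillar collagen that other dermal fibroblasts make in bulk.

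Each genotype had 1 library, so there was no test. Every ratio below is Chrna5-/- over WT of the UMIs summed over the dermal papilla cells and scaled to CPM, the counts of a gene relative to a fixed total of UMIs. It compares these 2 libraries and carries a 95% interval for counting error only. A gene counts as measured where the dermal papilla cells of both libraries together held 50 UMIs of it or more, and it is called higher or lower where the ratio was at least 1.5 either way and the interval left out 1. The dermal papilla cells held 2884249 UMIs in the Chrna5-/- library, with a median of 5649 UMIs and 2386 genes a cell, and 4108927 UMIs in the WT library, with medians of 6899.5 and 2665.5. The libraries shared 34 barcodes, 3 Chrna5-/- and 2 WT dermal papilla cells carried one of them, and no barcode was a dermal papilla cell in both.

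Chrna5 itself (ENSMUSG00000035594, chr9:54980880-55007779 on the plus strand, GRCm38) was close to unmeasured. It had 1 UMI in the 499 Chrna5-/- dermal papilla cells and 6 UMIs in the 596 WT dermal papilla cells, a ratio of 0.237 (0.00516 to 1.96). The share of cells with a UMI was 0.20% in Chrna5-/- and 1.01% in WT, against 0.0165% and 0.0494% in Chrna5-/- and WT keratinocytes. At this depth the loss of the transcript could not be read, and a UMI outside the deleted stretch would not show it. Both libraries had UMIs of Xist and at most 2 UMIs each of the Y-linked genes Ddx3y, Uty, Kdm5d and Eif2s3y over all barcodes, as the label of female mice gives. Gm47283, a gene model annotated on chromosome Y and described below, had 411 UMIs in Chrna5-/- and 28931 UMIs in WT over all barcodes. The origin of its UMIs in female mice was not tested.

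Beyond the genes of the rule, the papilla transcripts Alpl and Trps1 were higher, summed over cells, than in other fibroblast cells. Alpl, alkaline phosphatase, had 386 CPM in Chrna5-/- and 473 CPM in WT dermal papilla cells, but 8.23 and 12.7 CPM in Chrna5-/- and WT fibroblast cells outside the papilla. Trps1, a zinc finger factor, had 1801 CPM in Chrna5-/- and 1731 CPM in WT dermal papilla cells, against 21.3 and 86.4 CPM in those other fibroblast cells. Dcn, the proteoglycan decorin of ordinary dermal fibroblasts, went the other way, with 21.5 CPM in Chrna5-/- and 72.0 CPM in WT dermal papilla cells against 9271 and 10811 CPM in the other fibroblast cells, which it helped to choose. Summed over cells, Alpl and Trps1 thus went with the label of the cells. The comparison is a description, since the other fibroblast cells were chosen in part for few rule markers and for Dcn. A small sub-cluster described below had few cells with a UMI of Alpl. The fibroblast cells outside the papilla, 284 in Chrna5-/- and 266 in WT, had under 4 of the markers and at least 0.5% of their UMIs from Col1a1, Col1a2, Col3a1, Dcn and Lum.

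All 8 markers were found in 201 of the Chrna5-/- cells (40.3%) and 347 of the WT cells (58.2%), beside the higher depth of the WT cells. The cells just inside the rule, with 4 markers, numbered 23 in Chrna5-/- and 29 in WT, and their median depths were 1716 and 2113 UMIs. Those just outside, with 3 markers, numbered 42 in Chrna5-/- and 41 in WT, with median depths of 5278 and 6549 UMIs. The 5 fibroblast genes held a median of 0.267% and 0.472% of UMIs in Chrna5-/- and WT cells with 4 markers, against 1.498% and 1.99% in those with 3. A further 36 Chrna5-/- and 56 WT cells had 4 or more markers but reached the keratin limit and were left out.

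**Figure D1:**
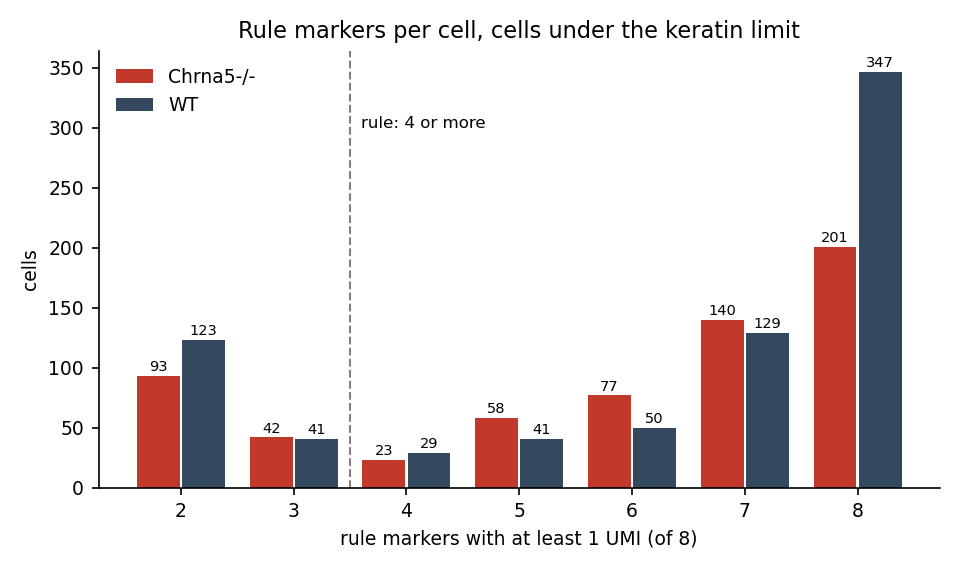
Number of cells (vertical axis) by how many of the 8 rule markers had a UMI (horizontal axis), for cells under the keratin limit, with Chrna5-/- bars left of WT bars. Cells with 3 or 4 markers are few on either side of the dashed line, and 201 Chrna5-/- and 347 WT cells carried all 8.

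Dermal papilla cells made up 5.36% of kept cells in the Chrna5-/- library (exact 95% interval 4.91 to 5.84) and 5.87% in the WT library (5.42 to 6.34). The ratio of the shares was 0.914 (0.810 to 1.03), which takes in 1. Among cells under the keratin limit the shares were 15.3% in Chrna5-/- and 14.6% in WT, with a ratio of 1.05 (0.929 to 1.18), so the direction turned with the denominator. When every cell was first thinned to 2000 UMIs, the ratio was 0.852 (0.747 to 0.972). Over these settings the ratio of the shares lay between 0.852 and 1.05.

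Of 9928 measured genes, 300 were higher in Chrna5-/- dermal papilla cells (3.02%) and 435 were lower (4.38%), and the measured genes had a median log2 ratio of 0.0327. The highest 12 with at least 200 UMIs were Spef2, Socs2, Ptk2, AC149090.1, Hpgd, Cish, Ptpn1, Rnf144b, Lrrc17, Bcl6, Plod2 and Trim16, with ratios between 2.16 and 3.84. The lowest 12 were Gm47283, Rspo4, Ifi27l2a, Ptgs2, Ndnf, Dcn, Lgals3bp, Tyrp1, Fgl2, Thbs1, mt-Nd3 and Mmp2, with ratios between 0.0169 and 0.342. Of 99 named genes that were called, 42 kept their call under every alternative. Weighting sub-clusters alike ended 35 calls, and letting in cells with 3 markers ended 17. Here and below, that weighting used 6 clusters of dermal papilla cells made on all genes, without the smallest cluster. Each was given the same weight. These are not the sub-clusters named later, and genes that differ between the libraries, such as Ndnf and Rspo4, lead some of them.

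**Figure D2:**
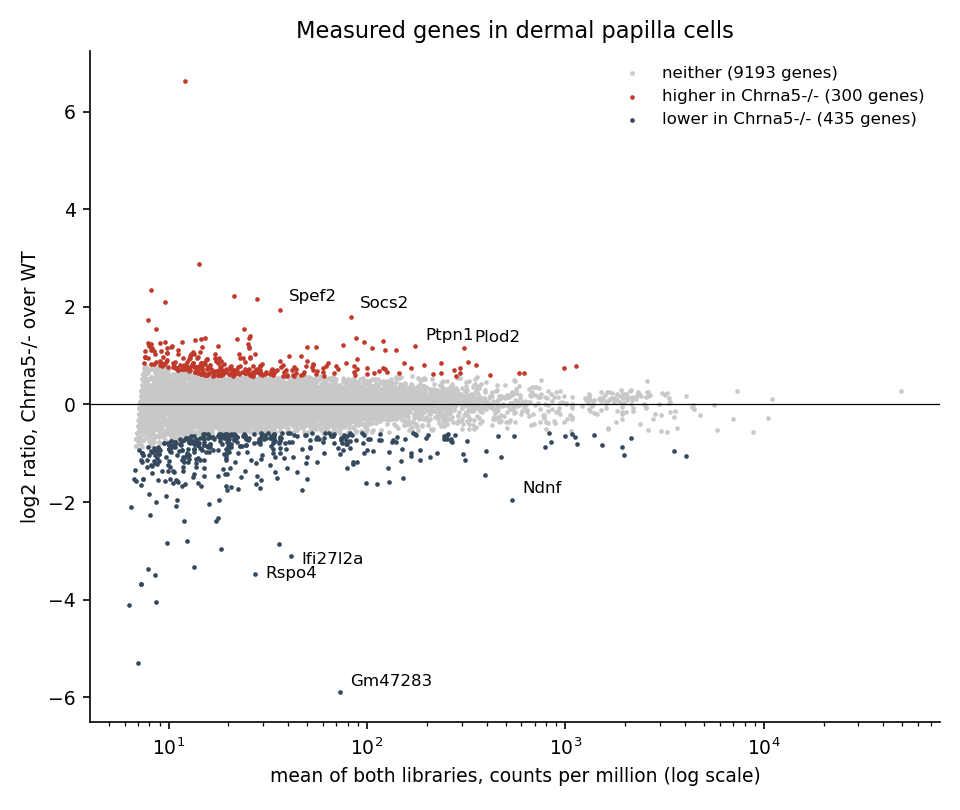
Log2 ratio of Chrna5-/- over WT (vertical axis) against the mean CPM of both libraries on a log scale (horizontal axis) for the 9928 measured genes in dermal papilla cells, 1 point a gene. The 300 higher and 435 lower genes are coloured, and Ndnf stands out as a strongly expressed gene at a ratio of 0.259.

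Socs2 (chr10:95385362-95417180, minus strand), a feedback inhibitor of growth hormone and cytokine receptors, had 129.7 CPM in Chrna5-/- and 37.2 CPM in WT dermal papilla cells, a ratio of 3.48 (2.88 to 4.23). Thinning to 5000 UMIs, here and below, left out cells with fewer UMIs. It kept 288 of 499 Chrna5-/- cells and 437 of 596 WT cells. Among these thinned cells Socs2 was found in 39.9% in Chrna5-/- and 13.5% in WT. Among all dermal papilla cells unthinned the shares were 38.5% and 15.8%. Keratinocytes, with median depths of 14533 UMIs in Chrna5-/- and 15083 UMIs in WT, had a UMI of it in 3.46% and 2.72% of cells. Its closest relative among the named genes was Cish (chr9:107296026-107302784, plus strand), another feedback inhibitor of the same family, at 106 CPM in Chrna5-/- and 45.8 CPM in WT, a ratio of 2.31 (1.92 to 2.79). Ptpn1, a tyrosine phosphatase that acts on cytokine and insulin receptor signalling, had 244 CPM in Chrna5-/- and 106.6 CPM in WT, a ratio of 2.29 (2.03 to 2.58). Bcl6 (chr16:23965052-23988852, minus strand), a transcriptional repressor, had 146 CPM in Chrna5-/- and 65.5 CPM in WT, a ratio of 2.23 (1.91 to 2.61). In fibroblast cells outside the papilla, Socs2 was higher as well, with 64 UMIs in Chrna5-/- and 41 in WT, a ratio of 1.51 (1.01 to 2.30). Ratios there were 1.34 (0.927 to 1.96) for Ptpn1, 1.27 (0.834 to 1.94) for Bcl6 and 0.969 (0.602 to 1.56) for Cish. Keratinocytes had ratios of 1.25 for Socs2, 1.26 for Cish, 1.33 for Bcl6 and 0.988 for Ptpn1.

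These 4 genes are known targets or brakes of signalling through the STAT transcription factors, and 24 further genes of that signalling were looked at after those values had been seen. The prolactin receptor Prlr had 656 CPM in Chrna5-/- and 506 CPM in WT, a ratio of 1.30 (1.22 to 1.38). Stat5a had 141 CPM in Chrna5-/- and 144 CPM in WT, and Stat5b had 80.8 and 83.5 CPM. Socs3, the most abundant gene of the family, had 3418 CPM in Chrna5-/- and 2970 CPM in WT, a ratio of 1.15 (1.12 to 1.18). None of the 24 was called higher or lower, 3 of them with too few UMIs to be measured.

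The promoters of Cish and Bcl6 are shown for the letters TTCNNNGAA, the core of STAT binding sites, which reads alike on both strands and was searched for after the values were seen. RefSeq windows of GRCm38.p6, running from 250 bases before to 50 bases after a transcript start, were used, and capitals mark each match. Bcl6 has a pair of windows, and the one with more matches is shown.
Cish, chr9:107296409-107296708, plus strand, with 2 matches: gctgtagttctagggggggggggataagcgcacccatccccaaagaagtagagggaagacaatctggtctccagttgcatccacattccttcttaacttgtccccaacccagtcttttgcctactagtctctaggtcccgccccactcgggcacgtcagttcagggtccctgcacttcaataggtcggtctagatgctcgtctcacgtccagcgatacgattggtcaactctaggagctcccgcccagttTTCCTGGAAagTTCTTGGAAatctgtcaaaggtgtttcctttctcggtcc
Bcl6, chr16:23981234-23981533, minus strand, with 3 matches: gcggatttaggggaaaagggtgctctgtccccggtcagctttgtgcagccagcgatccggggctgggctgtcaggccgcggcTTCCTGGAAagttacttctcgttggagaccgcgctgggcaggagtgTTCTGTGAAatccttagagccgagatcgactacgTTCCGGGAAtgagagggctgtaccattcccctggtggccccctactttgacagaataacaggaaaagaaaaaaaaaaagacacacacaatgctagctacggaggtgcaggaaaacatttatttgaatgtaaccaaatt
Of the 12 highest genes, 7 had a window and 4 of these held the motif (Cish, Bcl6, Rnf144b and Lrrc17). Among the 12 lowest, 5 had a window and 1 held it, Fgl2. Of all 27025 genes in the promoter table, 9.55% held it in at least 1 window. A match is a stretch of letters and was not shown to be bound.

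Other genes higher in Chrna5-/- dermal papilla cells had varied roles. Spef2, known for building sperm flagella and cilia, had 57.9 CPM in Chrna5-/- and 15.1 CPM in WT, a ratio of 3.84 (2.85 to 5.22). In both libraries most UMIs of Spef2 lay in a single sub-cluster described below. Hpgd, the enzyme that inactivates prostaglandins, had 136 CPM in Chrna5-/- and 56.2 CPM in WT, a ratio of 2.42 (2.05 to 2.86). Ptgs2, the inducible cyclooxygenase that starts prostaglandin synthesis, was at the other end with 8.67 CPM in Chrna5-/- and 63.0 CPM in WT, a ratio of 0.138 (0.0874 to 0.208). In WT 48.3% of its UMIs lay in 5 cells, and its ratio was 0.522 in keratinocytes and 1.22 (1.11 to 1.33) in fibroblast cells outside the papilla. With cells of 3 markers let in its log2 ratio was -1.23 against -2.86. Plod2, a lysyl hydroxylase that prepares collagen for cross-linking, had 423 CPM in Chrna5-/- and 191 CPM in WT, a ratio of 2.22 (2.03 to 2.43). Ptk2, focal adhesion kinase, had 126 CPM in Chrna5-/- and 48.9 CPM in WT dermal papilla cells, a ratio of 2.58 (2.17 to 3.08). It was higher in the rest of the skin too, with ratios of 1.98 (1.40 to 2.82) in fibroblast cells outside the papilla and 2.65 in keratinocytes, at 63.1 CPM in Chrna5-/- and 23.8 CPM in WT keratinocytes.

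Among the lower genes, Ndnf stood out for its level. Ndnf (chr6:65671590-65712326, plus strand), a secreted factor known from neurons and blood vessels, had 221 CPM in Chrna5-/- and 854 CPM in WT dermal papilla cells, a ratio of 0.259 (0.237 to 0.282). Among the cells thinned to 5000 UMIs, 42.4% in Chrna5-/- and 60.6% in WT had a UMI of it. Among all dermal papilla cells unthinned the shares were 43.7% and 64.3%, and among Chrna5-/- and WT keratinocytes 0.843% and 1.37%. With sub-clusters weighted alike its log2 ratio was -0.86, against -1.95 as given here. Rspo4 (chr2:151842927-151874668, plus strand), an R-spondin known for its part in nail growth, had 13 UMIs in Chrna5-/- and 206 in WT, or 4.51 and 50.1 CPM, a ratio of 0.0899 (0.0471 to 0.157). It was found in 2.00% of Chrna5-/- and 20.6% of WT cells, 2.78% and 16.7% when thinned, against 0.0165% and 0.214% of keratinocytes. An antisense gene, Rspo4os, overlaps it, and the strand setting of the counting is not given in the sources used here. Gm47283, a gene model annotated on chromosome Y, had 2.43 CPM in Chrna5-/- and 143.8 CPM in WT. It was far lower in the other cells too, with ratios of 0.0267 in fibroblast cells outside the papilla and 0.0162 in keratinocytes. The mitochondrial gene mt-Nd3 had 64.5 CPM in Chrna5-/- and 193 CPM in WT dermal papilla cells, a ratio of 0.333, and its ratio was 0.186 in fibroblast cells outside the papilla and 0.438 in keratinocytes. For such genes a difference of strain background between the libraries cannot be told apart from the Chrna5 genotype.

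Several of the lowest genes lay in few cells. For Dcn, 5 cells held 74.0% of the WT UMIs, and 51 of 596 WT cells had any. Its ratio of 0.298 (0.223 to 0.394) turned round when cells with 3 markers were let in, to a log2 ratio of 0.65. Tyrp1, a melanin-making enzyme of melanocytes, had 13.5 CPM in Chrna5-/- and 41.9 CPM in WT, with 1 WT cell holding 96 of 172 UMIs. Ifi27l2a, an interferon-induced gene, had 8.67 CPM in Chrna5-/- and 74.5 CPM in WT dermal papilla cells, a ratio of 0.116 (0.0741 to 0.175), and keratinocytes had 37.0 CPM in Chrna5-/- and 279.9 CPM in WT. In fibroblast cells outside the papilla Ifi27l2a was lower too, with 811 CPM in Chrna5-/- and 1340.0 CPM in WT, a ratio of 0.605 (0.562 to 0.651). Mmp2, a gelatinase that cuts matrix, had 14.9 CPM in Chrna5-/- and 43.6 CPM in WT, a ratio of 0.342 (0.239 to 0.480), and 5 WT cells held 25.1% of its UMIs there. With cells of 3 markers let in, the log2 ratio of Mmp2 was -0.098 against -1.55 and its call ended, and that of Ifi27l2a was -1.15 against -3.10. In fibroblast cells outside the papilla Mmp2 had 839 CPM in Chrna5-/- and 786 CPM in WT, a ratio of 1.07 (0.983 to 1.16).

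**Figure D3:**
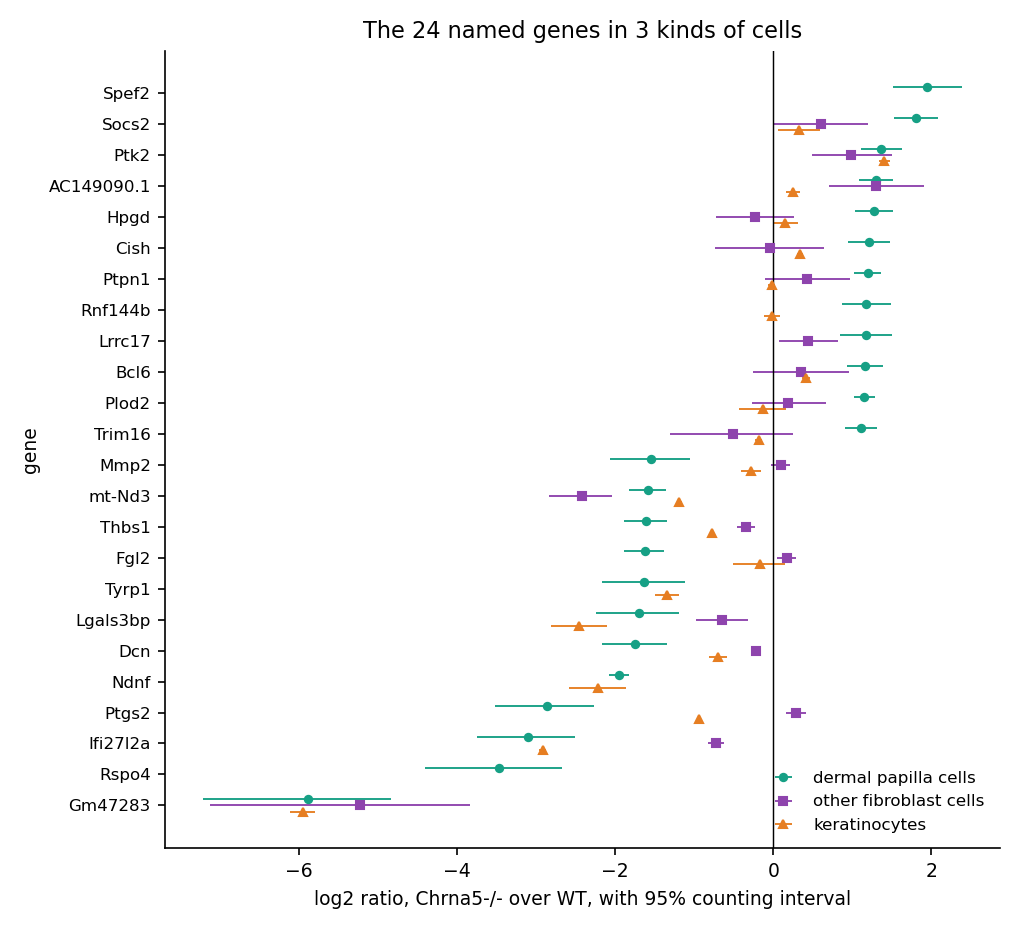
Log2 ratios of Chrna5-/- over WT with 95% counting intervals (horizontal axis) for the 24 named genes (vertical axis) in dermal papilla cells, fibroblast cells outside the papilla and keratinocytes. Kinds of cells with fewer than 50 UMIs of a gene are not drawn. On the same side of 0 in all 3 kinds of cells lie Socs2, Ptk2, AC149090.1, Bcl6, Gm47283, Ifi27l2a, Dcn, Lgals3bp, Thbs1 and mt-Nd3. The interval of Bcl6 in the other fibroblast cells takes in 0. Mmp2 and Fgl2 lie near 0 in the other fibroblast cells.

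Of the 8 genes that chose the cells, 3 were lower and 5 were neither, and since the rule asked for their presence these values are a description. Enpp2, the lysophospholipase autotaxin, had 1364 CPM in Chrna5-/- and 2497.5 CPM in WT, a ratio of 0.546 (0.526 to 0.567). Crabp1 (chr9:54764748-54773110, plus strand), a retinoic acid binding protein, had 772 CPM in Chrna5-/- and 1216 CPM in WT, a ratio of 0.635 (0.604 to 0.668). Crabp1 lies close to Chrna5 on chromosome 9. For Crabp1, an effect of the altered stretch or of the strain background around it cannot be told apart from the loss of Chrna5. Fgf7, a growth factor for keratinocytes, had 661 CPM in Chrna5-/- and 997 CPM in WT, a ratio of 0.663 (0.628 to 0.7003). Vcan, the proteoglycan versican, was the most abundant at 8051 CPM in Chrna5-/- and 6641 CPM in WT, a ratio of 1.21 (1.19 to 1.23). Wif1, a secreted Wnt inhibitor, and Hhip, a decoy for hedgehog ligands, had ratios of 0.756 (0.732 to 0.780) and 0.701 (0.674 to 0.728). Corin, a protease known for its effect on coat colour, had 741 CPM in Chrna5-/- and 722 CPM in WT, a ratio of 1.03 (0.970 to 1.09). The calls of Enpp2 and Fgf7 ended with sub-clusters weighted alike, and those of Crabp1 and Fgf7 with cells thinned to 5000 UMIs.

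Outside the rule, 30 of 31 listed papilla genes were measured, of which 2 were higher, 7 were lower and 21 were neither, with a median log2 ratio of -0.22. Of all measured genes 3.02% were higher and 4.38% lower, and the counts of this and the following lists stand beside those shares. Sox2, the transcription factor that marks papillae of certain hair types, had 176 CPM in Chrna5-/- and 113 CPM in WT, a ratio of 1.56 (1.37 to 1.77). Lef1, the nuclear partner of beta-catenin in Wnt signalling, had 500.3 CPM in Chrna5-/- and 330.3 CPM in WT, a ratio of 1.51 (1.41 to 1.63). Against them, Sox18, a transcription factor whose mutation in mice disturbs coat and vessels, had 306 CPM in Chrna5-/- and 644 CPM in WT, a ratio of 0.475 (0.440 to 0.513). Pappa, a protease that frees insulin-like growth factor (IGF) from its binding proteins, had 79.1 CPM in Chrna5-/- and 224 CPM in WT, a ratio of 0.353 (0.304 to 0.409), and a log2 ratio of -0.79 with sub-clusters weighted alike, against -1.50 as given here. The other lower genes were Bmp6, Twist2, Lpl, Notum and Rgcc, with ratios between 0.489 and 0.591. Lpl rested on 17 UMIs in Chrna5-/- and 49 in WT, and its direction turned with cells of 3 markers let in. Sox2 and Lef1 lie close to the fold limit: with sub-clusters weighted alike their log2 ratios were 0.40 and 0.52 and both calls ended, as did those of Bmp6, Twist2, Notum and Rgcc.

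**Figure D4:**
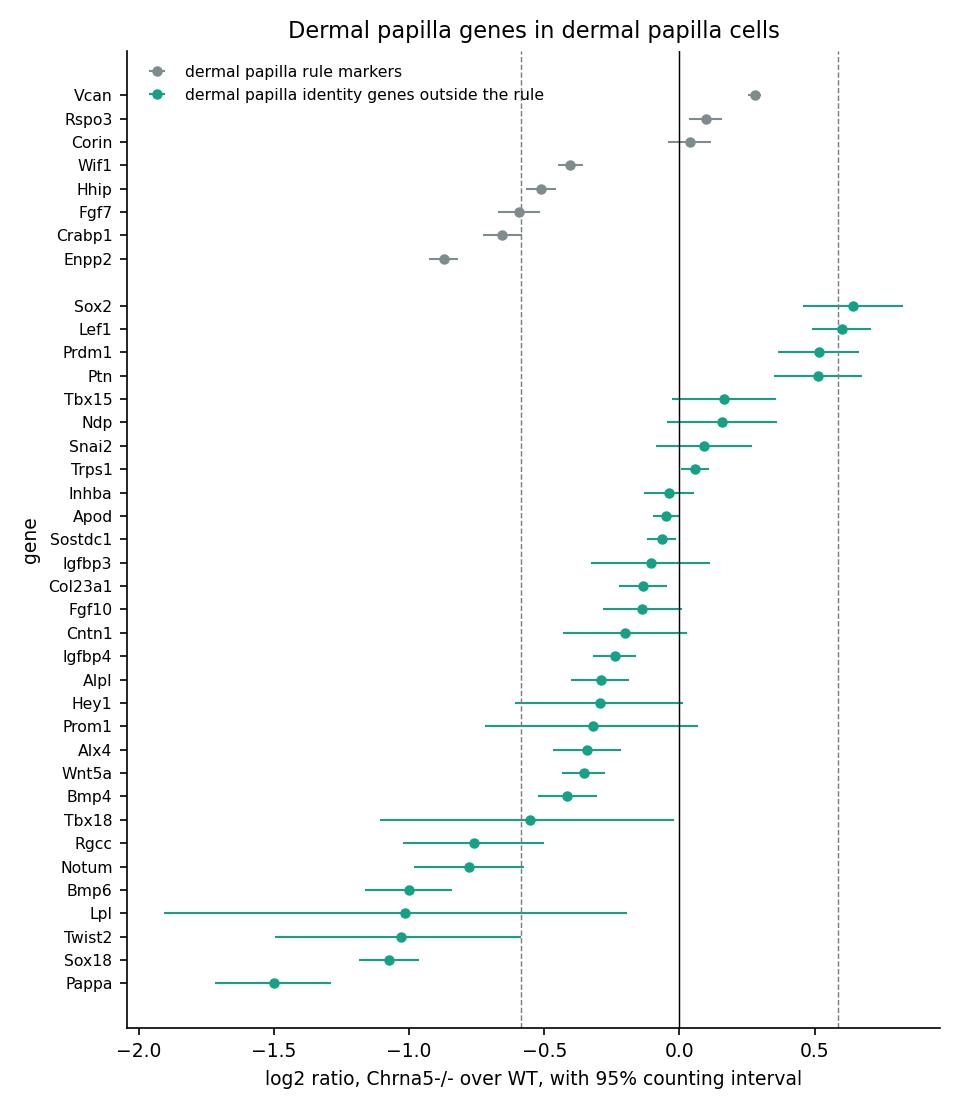
Log2 ratios of Chrna5-/- over WT with 95% counting intervals (horizontal axis) for the 8 rule markers and the 30 measured papilla genes outside the rule (vertical axis) in dermal papilla cells. Dashed lines mark a ratio of 1.5 either way, Sox2 and Lef1 lie beyond the right one, and Pappa and Sox18 are farthest left among the well-measured genes.

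In the Wnt pathway the ligands and receptors were mixed, and several secreted brakes were lower. Among 17 measured ligands and receptors 2 were higher and 2 lower, beside 3.02% higher and 4.38% lower of all measured genes. The ligand Wnt6 had 22.9 CPM in Chrna5-/- and 11.9 CPM in WT, a ratio of 1.92 (1.31 to 2.84), and Wnt10a had 13.5 and 7.79 CPM, a ratio of 1.74 (1.06 to 2.86). The receptor Fzd1 had 76.3 CPM in Chrna5-/- and 118 CPM in WT, a ratio of 0.648 (0.550 to 0.761), and the ligand Wnt11 had 5.20 and 11.7 CPM, a ratio of 0.445 (0.232 to 0.809). With sub-clusters weighted alike the log2 ratio of Fzd1 was -0.015 against -0.63, and the calls of Fzd1 and Wnt10a ended. That of Wnt11 ended with cells of 3 markers let in.

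Among 16 measured R-spondins, Lgr receptors and Wnt brakes, 1 was higher and 4 were lower, beside 3.02% and 4.38% of all measured genes. Frzb, a secreted decoy for Wnt, had 54.8 CPM in Chrna5-/- and 123 CPM in WT, a ratio of 0.444 (0.369 to 0.532). Sfrp1, another decoy, had 194.5 CPM in Chrna5-/- and 303 CPM in WT, a ratio of 0.642 (0.580 to 0.710). Notum, an enzyme that removes the lipid from Wnt, had 98.1 CPM in Chrna5-/- and 168 CPM in WT, a ratio of 0.583 (0.506 to 0.671), which turned to a log2 ratio of 0.0173 with sub-clusters weighted alike. Dkk2, a blocker of the Lrp co-receptors, was the higher one with 40.2 CPM in Chrna5-/- and 26.5 CPM in WT, a ratio of 1.52 (1.16 to 1.99). Rspo4 was lower too, and no other R-spondin was called. Rspo1 had 649 CPM in Chrna5-/- and 458 CPM in WT, a ratio of 1.42 (1.33 to 1.51), Rspo2 a ratio of 0.976 (0.886 to 1.07) and Rspo3 a ratio of 1.07 (1.02 to 1.12). The calls of Dkk2 and Sfrp1 ended with cells of 3 markers let in. In 10 measured Wnt target genes, Lef1 was higher and Twist2 lower.

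Among 11 measured hedgehog genes 2 were lower and none was higher, beside 4.38% lower and 3.02% higher of all measured genes. Ptch1, the hedgehog receptor and itself a target of the pathway, had 854 CPM in Chrna5-/- and 1294 CPM in WT, a ratio of 0.660 (0.629 to 0.692). Gli2, the main activating transcription factor, had 64.5 CPM in Chrna5-/- and 98.8 CPM in WT, a ratio of 0.653 (0.546 to 0.778). Gli1, the classical target gene, had 134.2 CPM in Chrna5-/- and 135.1 CPM in WT, a ratio of 0.993 (0.870 to 1.13). The calls of Ptch1 and Gli2 both ended when cells were averaged with equal weight or sub-clusters were weighted alike.

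In the BMP family, Bmp6 was lower and Bmp7 was higher. Bmp6 had 149 CPM in Chrna5-/- and 299 CPM in WT, a ratio of 0.4996 (0.447 to 0.558), while Bmp7 had 111 CPM in Chrna5-/- and 67.4 CPM in WT, a ratio of 1.65 (1.40 to 1.94). Gdf10, a growth and differentiation factor of the family, had 359.5 CPM in Chrna5-/- and 231 CPM in WT, a ratio of 1.56 (1.43 to 1.704). Of 20 measured ligands and antagonists these 3 were the ones called. Among 20 measured receptors and targets none was higher and 4 were lower. Both BMP lists stand beside 3.02% higher and 4.38% lower of all measured genes. Id1, an immediate target of BMP signalling, had 132 CPM in Chrna5-/- and 280.4 CPM in WT, a ratio of 0.472 (0.420 to 0.531). Ctgf, a matrix-associated target of TGF-beta, and Smad7, an inhibitor of the pathway, were also lower, with ratios of 0.540 and 0.648. With sub-clusters weighted alike the log2 ratio of Ctgf was -0.028 against -0.89, that of Smad7 was -0.34 against -0.63, and the calls of both ended, as did those of Bmp6, Bmp7 and Gdf10.

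Among 12 measured growth factors 1 was higher and 2 were lower, beside 3.02% and 4.38% of all measured genes. Pdgfc, a platelet-derived growth factor, had 18.4 CPM in Chrna5-/- and 11.0 CPM in WT, a ratio of 1.68 (1.11 to 2.55). Kitl, the ligand of the melanocyte receptor Kit, had 9.71 CPM in Chrna5-/- and 15.6 CPM in WT, a ratio of 0.623 (0.385 to 0.986), and its direction turned under 3 alternatives. It was the called gene of 5 measured signals to melanocytes. Fgf7 was the other lower factor, and the calls of Pdgfc and Fgf7 ended with sub-clusters weighted alike.

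Of 21 measured genes that receive or tune growth factor signals 9 were lower, with none higher and a median log2 ratio of -0.47. Igfbp5, which binds IGFs, had 1294 CPM in Chrna5-/- and 2651 CPM in WT, a ratio of 0.488 (0.470 to 0.506). Igfbp7 had 198 CPM in Chrna5-/- and 333 CPM in WT, a ratio of 0.593 (0.537 to 0.654), and its direction turned with sub-clusters weighted alike, as did that of Igfbp2. Pdgfrb, a receptor for platelet-derived growth factor, had 36.4 CPM in Chrna5-/- and 66.7 CPM in WT, a ratio of 0.546 (0.432 to 0.686). Etv5, a transcription factor switched on by fibroblast growth factor signalling, had 5.55 CPM in Chrna5-/- and 16.3 CPM in WT, a ratio of 0.340 (0.184 to 0.594). Spry4, a feedback inhibitor of the same signalling, had 9.01 CPM in Chrna5-/- and 19.2 CPM in WT, a ratio of 0.469 (0.289 to 0.738). Pappa, Igfbp2, Igfbp6 and Egfr made up the rest, and Igfbp6 and Egfr rested on 7 and 14 UMIs in Chrna5-/- and turned with cells of 3 markers let in.

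The type I interferon genes were lower or neither. Of 15 measured genes 7 were lower, none was higher and 8 were neither, and the median log2 ratio was -0.71. After Ifi27l2a came Oasl2, an RNA sensor of the OAS family, with 5.55 CPM in Chrna5-/- and 17.8 CPM in WT, a ratio of 0.312 (0.170 to 0.542). Bst2, the tetherin that holds budding viruses on the cell, was picked after its values were seen and had 29.8 CPM in Chrna5-/- and 68.4 CPM in WT, a ratio of 0.436 (0.338 to 0.557). It was found in 12.2% of Chrna5-/- and 26.5% of WT cells thinned to 5000 UMIs, against 13.0% and 29.9% unthinned, and 9.21% and 19.96% of the deeper Chrna5-/- and WT keratinocytes. The genes were lower in keratinocytes as well, with ratios of 0.391 for Bst2, 0.256 for Oasl2 and 0.363 for Xaf1. In fibroblast cells outside the papilla Ifi27l2a and Oasl2 were lower, with ratios of 0.605 and 0.643, and Bst2 had a ratio of 1.00 (0.861 to 1.16). Irf7, Irf9, Rtp4 and Xaf1 were the other lower genes. Levels were low: besides Ifi27l2a and Bst2, no lower gene passed 50 CPM in either library.

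The Bst2 promoter is shown for the core of the interferon-stimulated response element, GAAA followed by any 2 bases and GAAA again, searched on both strands. It held 2 matches that overlap each other, which the capitals mark as 1 run.
Bst2, chr8:71537423-71537722, minus strand: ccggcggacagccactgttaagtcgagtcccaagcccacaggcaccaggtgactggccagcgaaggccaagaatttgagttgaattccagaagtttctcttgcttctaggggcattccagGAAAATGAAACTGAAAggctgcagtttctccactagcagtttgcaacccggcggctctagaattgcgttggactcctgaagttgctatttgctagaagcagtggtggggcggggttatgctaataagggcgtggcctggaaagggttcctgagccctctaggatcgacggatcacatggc
Of the 7 lower interferon genes 5 had a window in the table, and Bst2 was the 1 with this motif, against 3.99% of all 27025 genes. Xaf1 was the 1 of the 5 with the AP-1 letters TGANTCA, held by 8.97% of all genes, and none had the TCF/LEF letters CTTTGAA, held by 5.93%.

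The other immune lists held lower genes as well. Antigen presentation had 6 of 19 measured genes lower and none higher. The lowest were H2-Q6, a class I gene whose reads can be split with its near copy H2-Q7, and H2-Aa, a class II gene whose direction turned under the stricter filter on cells. Among 18 measured NF-kB targets 5 were lower, including Icam1, an adhesion molecule, picked after its values were seen, with 184 CPM in Chrna5-/- and 302 CPM in WT, a ratio of 0.610 (0.550 to 0.676). The lowest of that list, Saa3, had 1 UMI in Chrna5-/- and 56 UMIs in WT, all 56 in 1 cell. Cxcl10, a chemokine, was the higher 1 of 12 measured chemokines and cytokines, with 35.4 CPM in Chrna5-/- and 15.1 CPM in WT, and 64.7% and 56.5% of its UMIs lay in 5 cells. As a whole, the NF-kB list held 0.535% of UMIs in Chrna5-/- and 0.519% in WT. The chemokine and cytokine list held 0.0694% and 0.0648%, and the antigen presentation list 0.126% and 0.164%, in the same order.

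Genes induced by stress and by tissue dissociation were lower in part. Egr1, an immediate early transcription factor, had 2405 CPM in Chrna5-/- and 4638 CPM in WT, a ratio of 0.518 (0.504 to 0.533). Egr3 had 52.01 CPM in Chrna5-/- and 118 CPM in WT, a ratio of 0.441 (0.364 to 0.530). Of 25 measured immediate early genes 4 were lower and none was higher, beside 4.38% lower and 3.02% higher of all measured genes. Of 14 measured heat shock chaperones 5 were lower and none higher, and Hspa1b had 1101 CPM in Chrna5-/- and 1957 CPM in WT, a ratio of 0.562 (0.540 to 0.586). Hspa1b and Hspa1a are near-identical copies, so their split is uncertain. In keratinocytes Egr1 was on the other side, with 985 CPM in Chrna5-/- and 752 CPM in WT. The part of tissue handling in these differences was not tested.

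The mitochondrially encoded genes summed to 1.93% of UMIs in Chrna5-/- and 2.83% in WT dermal papilla cells. Of 13, all measured, mt-Nd3 and mt-Co3 were lower, and mt-Co3, a subunit of cytochrome c oxidase, had 2644 CPM in Chrna5-/- and 5497 CPM in WT, a ratio of 0.481 (0.469 to 0.494). Its ratio was 0.383 in fibroblast cells outside the papilla and 0.813 in keratinocytes.

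Among the genes of acetylcholine signalling, 2 of 6 measured were higher and 1 was lower, beside 3.02% and 4.38% of all measured genes. Slc5a7, the transporter that takes choline into cholinergic cells, had 116 CPM in Chrna5-/- and 60.8 CPM in WT, a ratio of 1.91 (1.62 to 2.26), and had 0 UMIs in the fibroblast cells outside the papilla of both libraries. Chrm2, a muscarinic receptor, had 35.0 CPM in Chrna5-/- and 15.8 CPM in WT, a ratio of 2.21 (1.60 to 3.07). Ly6e, a small protein anchored to the cell surface, had 26.7 CPM in Chrna5-/- and 41.1 CPM in WT, a ratio of 0.649 (0.489 to 0.855). The list held 33 genes, of which 13 had no UMI in either library. The call of Chrm2 ended with sub-clusters weighted alike, and that of Ly6e with cells of 3 markers let in.

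Further lists held few calls, beside the 3.02% higher and 4.38% lower of all measured genes, and no list is read from them. The glucocorticoid list had 1 of 12 measured genes higher, the clock list 1 higher and 1 lower of 16, the axon guidance list 1 higher and 3 lower of 26, and the cell cycle list 1 lower of 20. Fkbp5, a chaperone of the glucocorticoid receptor and its target, had 16.6 CPM in Chrna5-/- and 6.81 CPM in WT, a ratio of 2.44 (1.502 to 4.04). It was also higher in fibroblast cells outside the papilla, with a ratio of 2.80 (1.61 to 5.09). Nr1d1, the clock repressor Rev-erb alpha, had 37.8 CPM in Chrna5-/- and 21.2 CPM in WT, a ratio of 1.78 (1.33 to 2.39), while Bhlhe41, another clock repressor, had a ratio of 0.416 (0.212 to 0.766), a call that ended under 5 alternatives. Unc5c, a netrin receptor, had 152 CPM in Chrna5-/- and 90.05 CPM in WT, a ratio of 1.68 (1.46 to 1.94), and Ntn1, a netrin, had a ratio of 0.471 (0.313 to 0.692) that turned with sub-clusters weighted alike. Hmgcs1, an early enzyme of cholesterol synthesis, had 196 CPM in Chrna5-/- and 337 CPM in WT, a ratio of 0.583 (0.527 to 0.643), and 4 of 21 measured genes of that pathway were lower. The cell cycle gene was Ccnd2, a cyclin, at 31.9 CPM in Chrna5-/- and 47.9 CPM in WT. The calls of Hmgcs1 and Ccnd2 ended with sub-clusters weighted alike, and that of Nr1d1 in the 3 large sub-clusters. No gene of the Notch pathway was called among 12 measured.

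Collagen and glycoprotein genes of the matrix were lower where called, with 1 exception. Of 21 measured collagens 4 were lower, beside 4.38% of all measured genes. Col14a1, a collagen found along fibrils, had 116 CPM in Chrna5-/- and 255 CPM in WT, a ratio of 0.455 (0.401 to 0.516). Of 33 measured glycoproteins and proteoglycans 9 were lower and 1 was higher. As a whole, however, the glycoprotein and proteoglycan list held 1.38% of UMIs in Chrna5-/- and 1.32% in WT, a ratio of 1.05 (1.03 to 1.06). The collagen list held 0.649% in Chrna5-/- and 0.767% in WT. Thbs1, thrombospondin, had 48.9 CPM in Chrna5-/- and 149.7 CPM in WT, a ratio of 0.327 (0.270 to 0.393). Mfap4, a protein of elastic microfibrils, was the higher one with 100.5 CPM in Chrna5-/- and 56.2 CPM in WT, a ratio of 1.79 (1.499 to 2.13), a call that ended with cells of 3 markers let in. Of 16 measured fibroblast genes from outside the papilla 6 were lower, and the list held 0.333% of UMIs in Chrna5-/- and 0.401% in WT. Its highest single cells reached 52255 CPM in Chrna5-/- and 69926 CPM in WT, against medians over cells of 2477 and 2557 CPM.

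Clustering the 1095 cells without the higher and lower genes, a choice made after the values were seen, gave 6 sub-clusters that are referred to by genes among their 12 leading ones and were given no cell type name. The Npr3, Sostdc1 and Sox2 sub-cluster held 36.9% of Chrna5-/- cells (32.6 to 41.3) and 25.2% of WT cells (21.7 to 28.9). The Ndnf, Notum and Igfbp5 sub-cluster held 31.7% of Chrna5-/- cells (27.6 to 35.9) and 37.8% of WT cells (33.8 to 41.8). The Tnfaip2, Arrdc3 and Egr2 sub-cluster held 25.9% of Chrna5-/- cells (22.1 to 29.9) and 29.4% of WT cells (25.7 to 33.2). The first was the one of these 3 whose intervals did not meet. The intervals cover the counting of cells only and leave out differences between mice and between libraries, so the genotypes were not compared by them. Clustering on all genes gave 7 clusters with other sizes. They are not set side by side here, since genes that differ between the libraries, such as Ndnf and Rspo4, lead them. All but the smallest of these were the clusters used wherever sub-clusters were weighted alike.

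Small sub-clusters carried transcripts of other cell types. A sub-cluster of 21 Chrna5-/- and 26 WT cells was led by the keratinocyte genes Krtdap, Krt10 and Krt1 and had a median of 14218 UMIs. Another, of 3 Chrna5-/- and 10 WT cells, was led by Igfbp2, Stmn2 and Lrrc15 and also by Col1a1 and Acta2. Acta2 and Tagln were found in 100% of its cells. Of the papilla genes, Vcan and Corin were found in 100% and 76.9% there, Alpl and Lef1 in 7.69% each, and Crabp1 in 0%. The last, of 4 Chrna5-/- and 10 WT cells, was led by the lymphocyte genes Rgs1, Xcl1 and Cd3g. All of these cells stayed among the dermal papilla cells, since they met the rule.

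Within the large sub-clusters, some differences held throughout and others did not. Socs2 was higher in all 3, with ratios of 2.62 (1.84 to 3.79) in the Npr3 sub-cluster, 7.57 (5.00 to 11.8) in the Ndnf sub-cluster and 2.68 (1.97 to 3.66) in the Tnfaip2 sub-cluster. In the Ndnf sub-cluster it had 168 CPM in Chrna5-/- and 22.2 CPM in WT. Cish, Ptpn1, Bcl6 and Ptk2 were also higher in each, and Pappa, Bmp6, Egr1, Thbs1 and mt-Nd3 were lower in each. In the 3 largest clusters on all genes, Socs2, Cish, Ptpn1, Bcl6 and Ptk2 were higher and mt-Nd3 lower in each. There Pappa and Bmp6 were not called in 1 cluster, with ratios of 0.794 and 0.723, Egr1 was not called in another, with 0.725, and Thbs1 had too few UMIs in that one. Ndnf was lower in the Ndnf sub-cluster, at 429 CPM in Chrna5-/- and 1726 CPM in WT, a ratio of 0.249 (0.220 to 0.281), and in the Tnfaip2 sub-cluster, a ratio of 0.410 (0.354 to 0.473). In the Npr3 sub-cluster it had 60.3 CPM in Chrna5-/- and 65.5 CPM in WT, a ratio of 0.920 (0.649 to 1.30).

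Hpgd had the same shape, with a ratio of 1.13 (0.865 to 1.48) in the Npr3 sub-cluster against 6.96 (4.65 to 10.7) and 3.87 (2.82 to 5.37) in the Ndnf and Tnfaip2 sub-clusters. Igfbp5 had ratios of 1.01, 0.525 and 0.519 in the same order. Sox2 was level in the Npr3 sub-cluster, where it is most abundant, at 309 CPM in Chrna5-/- and 307.5 CPM in WT. Its ratio was 2.52 (1.79 to 3.57) in the Ndnf sub-cluster, from 118 CPM in Chrna5-/- and 46.7 CPM in WT. In the Tnfaip2 sub-cluster the ratio of Sox2 was 1.22 (0.740 to 2.00). Spef2, also among the leading genes of the Npr3 sub-cluster, had 124 UMIs in Chrna5-/- and 52 in WT there, a ratio of 2.33 (1.67 to 3.28). It had 23 UMIs in Chrna5-/- and 0 in WT in the Ndnf sub-cluster, and 6 in each library in the Tnfaip2 sub-cluster. Sox18 had ratios of 0.896 (0.706 to 1.14), 0.444 (0.393 to 0.502) and 0.736 (0.649 to 0.833) in the 3 sub-clusters. Counting intervals of these ratios meet for some pairs of sub-clusters and not for others, and no difference between sub-clusters was tested. The Chrna5-/- cells of the Ndnf sub-cluster had a median of 4243.5 UMIs and its WT cells 6048. The 3 largest clusters on all genes, led by Npr3, Sncb and Tnfaip2, gave other values. Sox2 was called in none of them, with ratios of 1.055 (0.912 to 1.22), 1.72 (0.942 to 3.34) and 1.55 (0.906 to 2.64). In the same order Hpgd had 1.395 (1.083 to 1.802), 2.64 and 3.28, and Igfbp5 had 1.02, 0.4855 and 0.715. Sox18 had 0.828, 0.7865 and 0.390.

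**Figure D5:**
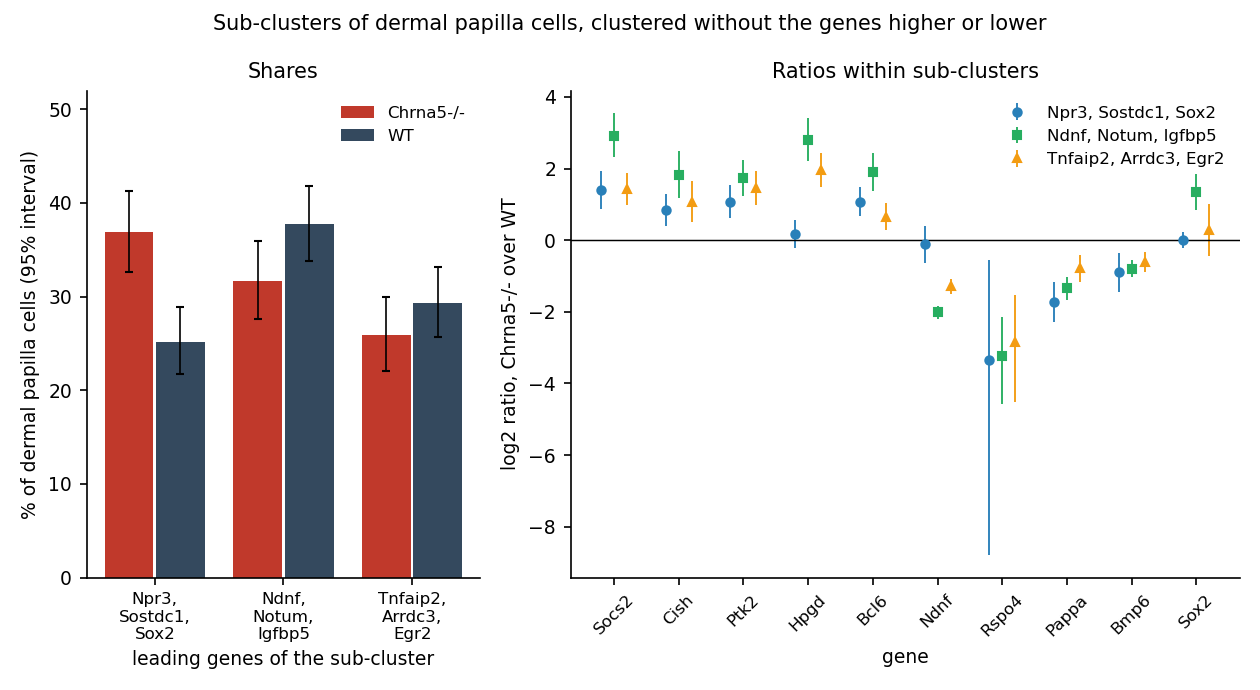
Left, the percentage of dermal papilla cells (vertical axis, exact 95% intervals) in the 3 large sub-clusters, Chrna5-/- bars left of WT bars. Right, log2 ratios of Chrna5-/- over WT (vertical axis, 95% counting intervals) for 10 genes within each sub-cluster: Socs2, Cish, Ptk2 and Bcl6 lie above 0 in all 3, Rspo4, Pappa and Bmp6 below 0 in all 3 (Rspo4 with 1 and 10 UMIs in the Npr3 sub-cluster), and Ndnf, Hpgd and Sox2 near 0 in the Npr3 sub-cluster.

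Transcripts of other cell types differed between the libraries as well. The 13 keratinocyte markers held 0.476% of UMIs in Chrna5-/- and 0.363% in WT dermal papilla cells, a ratio of 1.31 (1.28 to 1.34), with Krt5, Krt14, Krt15 and Lgals7 higher and none lower. The rule held Krt5 and Krt14 under 1% of UMIs, so their values and the sum they enter are a description. The 7 melanocyte markers held 0.0164% in Chrna5-/- and 0.0316% in WT, a ratio of 0.518 (0.466 to 0.576), with Dct, Pmel, Mlana and Tyrp1 lower. Over single cells the summed melanocyte markers ranged between 0 and 14238 CPM in Chrna5-/- and between 0 and 20481 CPM in WT, with medians of 0 and 133 CPM. The 9 T and innate lymphoid markers held 0.00458% in Chrna5-/- and 0.00730% in WT. Endothelial, adipocyte, skeletal muscle and red blood cell markers summed to at most 49 UMIs each in either library. The part of these transcripts in the differences of interferon, pigment and matrix genes was not tested.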

How the data were processed

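Single-cell RNA libraries of dorsal skin, 1 per genotype, were aligned to mm10 and counted with Cell Ranger 3.0.2 by the authors, per the submitters' processing notes. The matrix header gives a software version of 3.1.0 instead. The deposited values are UMI counts per gene and barcode, per the file headers, and are not normalized. Dermal papilla cells, the gene lists and the rule itself were chosen with earlier results of these data known. UMI counts were summed over the cells of each library and scaled to CPM. Ratios carry a conditional exact binomial 95% interval, which covers counting error only. This procedure was tested on simulated counts that held counting error alone, so that test does not cover genes whose UMIs lie in few cells. A sum of 0 was set to a floor of 3 counts. Named genes are the 12 highest and 12 lowest called genes with at least 200 UMIs, the rule markers, the 2 highest and 2 lowest of each list, Chrna5, and called genes of the papilla, hedgehog, Wnt, R-spondin, BMP, growth factor and melanocyte signal lists. Other genes in the text were chosen after their values were seen. Doublets were scored with Scrublet, run in scanpy, and kept, since the libraries' own thresholds marked 1.19% of Chrna5-/- and 0.0295% of WT cells, too few for the WT threshold to have worked. A common score of 0.25 was an alternative and removed 16 Chrna5-/- and 18 WT dermal papilla cells. Sub-clusters came from scanpy 1.11.5 (Leiden, resolution 0.5, 20 components, 15 neighbours, 1000 variable genes). Coordinates are those of GENCODE vM21 on GRCm38, where 30934 of 31053 identifiers were found. Python 3.11.15, numpy 2.4.6, scipy 1.17.1 and pandas 2.3.3 were used. One gene of the lists is not reported here.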

Additional observations from a re-analysis of the deposited data

Results flagged for a closer look

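Some genes that were called in dermal papilla cells stood on the opposite side of 1 in other cells of the same libraries, by at least 1.5 times. The difference between the kinds of cells was not tested. In fibroblast cells outside the papilla, Lpl, lipoprotein lipase, had a ratio of 1.879 against 0.494 in dermal papilla cells. Kitl had 1.636 there against 0.623. Col5a3 and Col14a1, both collagens, had 1.789 and 2.001 there against 0.398 and 0.455. Ptx3, a pentraxin of innate immunity, had 1.795 there against 0.0966. Mfap4 was the reverse case, with 0.2173 in those fibroblast cells against 1.79 in dermal papilla cells. In keratinocytes, Id1 had 1.886 against 0.472 in dermal papilla cells, and the chaperone Dnajb1 had 1.576 against 0.570. Lpl, Kitl, Col5a3 and Ptx3 also turned direction in dermal papilla cells when cells with 3 markers were let in.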

How the results depend on the processing

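Each genotype is 1 library, so the library and the genotype cannot be told apart, and intervals cover counting error only. No paired analysis was possible because each genotype has 1 library. Of 2198 values of 157 named genes under the alternatives, 1981 stayed inside the interval of the reported value and 20 changed sign. Of 99 called named genes 42 kept their call under every alternative. Calls ended for 35 with sub-clusters weighted alike. They ended for 27 with cells thinned to 5000 UMIs, which leaves out shallower cells and holds fewer UMIs. They ended for 17 with 3 markers allowed and for 17 in the 3 large sub-clusters. With 3 markers allowed, log2 ratios turned to 0.65 for Dcn, 0.38 for Lpl, 0.11 for Kitl, 0.82 for Igfbp6, 0.39 for Egfr, 0.65 for Col5a3 and 2.78 for Ptx3, and the median of the fibroblast list to 0.16. With sub-clusters weighted alike they turned to 0.0173 for Notum, 0.37 for Acta2, 0.0642 for Kitl, 0.21 for Igfbp2, 0.12 for Igfbp7, 0.0665 for Ntn1 and 0.80 for Ccl5, while Ndnf was -0.86 and Pappa -0.79 against -1.95 and -1.50. The mean over cells gave 0.0699 for Kitl, and the strict filter on cells 0.15 for H2-Aa. Ccl5 was 0.54 with doublets removed, 1.51 in the 3 large sub-clusters and 0.51 without the 5 top cells, where Saa3 was also 0.51. The cause of these turns was not tested. The ratio of the share of dermal papilla cells was 1.049 among cells under the keratin limit. Higher and lower genes numbered 89 and 174 with at least 200 UMIs, and 60 and 155 with a ratio of at least 2. Leaving out cells with 2 or more markers of another cell type left 11 Chrna5-/- and 12 WT cells and gave no value.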

Other observations

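The genes below were picked after their values were seen and belong to none of the pathway lists. Ermn, a cytoskeletal protein known from oligodendrocytes, had 24.96 CPM in Chrna5-/- and 3.41 CPM in WT dermal papilla cells, a ratio of 7.33 (4.10 to 14.1). Dtna, a component of the dystrophin complex, had 35.0 CPM in Chrna5-/- and 7.54 CPM in WT, a ratio of 4.64 (3.08 to 7.18). Dapl1 had 45.4 CPM in Chrna5-/- and 10.2 CPM in WT, and Galnt14, a glycosyltransferase, had 15.6 CPM in Chrna5-/- and 3.65 CPM in WT. Ghrh, the hypothalamic releasing hormone of growth hormone, had 4 UMIs in Chrna5-/- and 64 UMIs in WT. Neat1, a nuclear RNA, had 194.5 CPM in Chrna5-/- and 430 CPM in WT, a ratio of 0.453 (0.411 to 0.498), whereas Malat1 had a ratio of 1.20 (1.19 to 1.21). Retnla had 69 UMIs in Chrna5-/- and 1 UMI in WT, all 69 in 1 cell.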
